A study of Homo sapiens with 6 samples.

Results

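The genes described here make cholesterol and fatty acids, or sense sterols and switch those enzymes on. They were taken by symbol from a list of 32, made up of 19 enzymes of the sterol pathway, 6 regulators and sterol carriers, and 7 enzymes of fatty acid synthesis and desaturation. Of these, 31 were kept, because a mean of 2 raised to the deposited log2 value of at least 10 over the libraries was required. ACACA, the acetyl-CoA carboxylase that commits carbon to fatty acids, was not matched to a row of the table. It has no expression value here, and enters only the counts of promoter windows. The 31 stand among 14763 genes that passed the same filter, of 57820 rows in the table.

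Messenger RNA was sequenced from the hTert-HME1 line, mammary epithelial cells of human origin that the telomerase gene has immortalised. All cells had been transfected with an siRNA, left to recover and then kept in mammary epithelial growth medium, complete with EGF (the ligand of the receptor EGFR) or lacking EGF. The control group had siRNA control-1 and EGF and held 3 libraries, 1 from passage 4 (control P4) and 2 from passage 6 (controls A and B). Another library, labelled siRNA BRCA2-2 with EGF and called the BRCA2-labelled EGF library from here on, came from passage 4. The group labelled siRNA BRCA2-2 without EGF held 2 libraries from passage 6, replicates A and B. The sample names of these 2 contain the letters EGF, and they were placed by their medium label, which says that EGF was lacking. Only 1 siRNA against BRCA2 and 1 control siRNA were used in these 6 libraries, in a single cell line. Further libraries that the series text lists, among them control siRNA without EGF, were not analysed here. In the comparison of the replicated groups the siRNA and the medium therefore differ together and cannot be told apart. The labels give the letters as biological replicates but do not say that these came from separate cultures, and control P4 carries the same letter as control A. The p-values therefore measure only how these libraries vary, and part of that may be technical.

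Cells make cholesterol from acetyl-CoA by way of mevalonate, isoprenoid diphosphates, squalene and lanosterol, and they make palmitate from the same acetyl-CoA. The transcription factors SREBF1 and SREBF2 switch on most of these enzymes after SCAP has carried them from the endoplasmic reticulum to the Golgi, and INSIG1 and INSIG2 hold SCAP back when sterols are plentiful. INSIG1 is itself a target of the same factors, and growth factor signalling is known to raise their activity in epithelial cells.

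The promoters of the members were read first, since the members are known to share their control. In RefSeq on GRCh38.p14, 28 members had a window of 250 bases before to 50 bases from a gene start on, 40 windows in all because some genes have several starts. The files were made on another build, hg19, and these coordinates are those of RefSeq alone. Both strands were searched for the sterol regulatory element (TCACNCCAC), for the CCAAT box (CCAAT), which binds the factor NF-Y, and for the GC box (GGGCGG), which binds SP1. Matches of the CCAAT box on opposite strands can overlap each other, and each was counted. The 4 windows below belong to the enzymes with the 2 widest and the 2 narrowest differences between replicates A and B without EGF, in absolute size, among those with a window. Regulators were not considered in that choice, and the first listed start is shown. Capitals mark CCAAT and GGGCGG or their reverse complements.
HMGCS1: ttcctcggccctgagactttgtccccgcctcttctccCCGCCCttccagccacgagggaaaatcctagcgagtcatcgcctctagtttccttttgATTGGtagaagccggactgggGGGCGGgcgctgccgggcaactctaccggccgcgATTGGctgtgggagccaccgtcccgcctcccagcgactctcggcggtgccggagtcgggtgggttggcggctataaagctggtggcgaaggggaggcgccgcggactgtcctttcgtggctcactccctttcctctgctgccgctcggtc
NSDHL: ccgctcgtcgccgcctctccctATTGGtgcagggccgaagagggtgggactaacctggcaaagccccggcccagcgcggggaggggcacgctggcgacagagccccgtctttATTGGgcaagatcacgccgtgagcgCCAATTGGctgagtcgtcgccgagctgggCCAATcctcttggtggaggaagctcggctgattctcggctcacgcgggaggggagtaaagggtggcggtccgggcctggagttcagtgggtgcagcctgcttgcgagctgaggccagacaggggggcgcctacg
PMVK: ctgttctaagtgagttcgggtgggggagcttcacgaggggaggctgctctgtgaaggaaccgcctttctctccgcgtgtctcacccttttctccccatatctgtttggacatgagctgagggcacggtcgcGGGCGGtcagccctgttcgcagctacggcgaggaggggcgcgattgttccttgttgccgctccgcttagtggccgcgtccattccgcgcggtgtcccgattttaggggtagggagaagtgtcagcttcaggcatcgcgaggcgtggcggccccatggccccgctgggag
CYP51A1: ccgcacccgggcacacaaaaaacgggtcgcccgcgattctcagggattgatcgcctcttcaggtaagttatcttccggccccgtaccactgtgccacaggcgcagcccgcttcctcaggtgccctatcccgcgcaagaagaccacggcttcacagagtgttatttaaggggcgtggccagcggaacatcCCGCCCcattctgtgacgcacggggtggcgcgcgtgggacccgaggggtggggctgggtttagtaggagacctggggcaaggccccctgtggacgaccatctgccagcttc

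The HMGCS1 window (chr5:43313363-43313662, minus strand) held 2 CCAAT boxes and 2 GC boxes. The NSDHL window (chrX:152830813-152831112, plus strand) held 5 CCAAT boxes, of which 1 pair overlaps, and 0 GC boxes. The PMVK window (chr1:154936670-154936969, minus strand) and the CYP51A1 window (chr7:92134428-92134727, minus strand) each held 1 GC box and 0 CCAAT boxes. A CCAAT box was found in 25 of the 40 windows of the members (62.5%), against 34.6% of all 35116 windows in the table and 35.0% of those of tested genes. A GC box was found in 35 of the 40 (87.5%), against 45.0% of all windows and 65.0% of those of tested genes. Elements spelled otherwise were not searched for, and the sterol element in its strict spelling matched 1 of the 40 (2.5%), against 1.13% of all windows. That match lies in SREBF2, at positions -133 to -125 from its start, and its surroundings (chr22:41832946-41833005, plus strand) are printed with the element in capitals, having been picked after the match was seen.
SREBF2: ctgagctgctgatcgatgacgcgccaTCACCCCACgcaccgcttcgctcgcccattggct

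**Figure D1:**
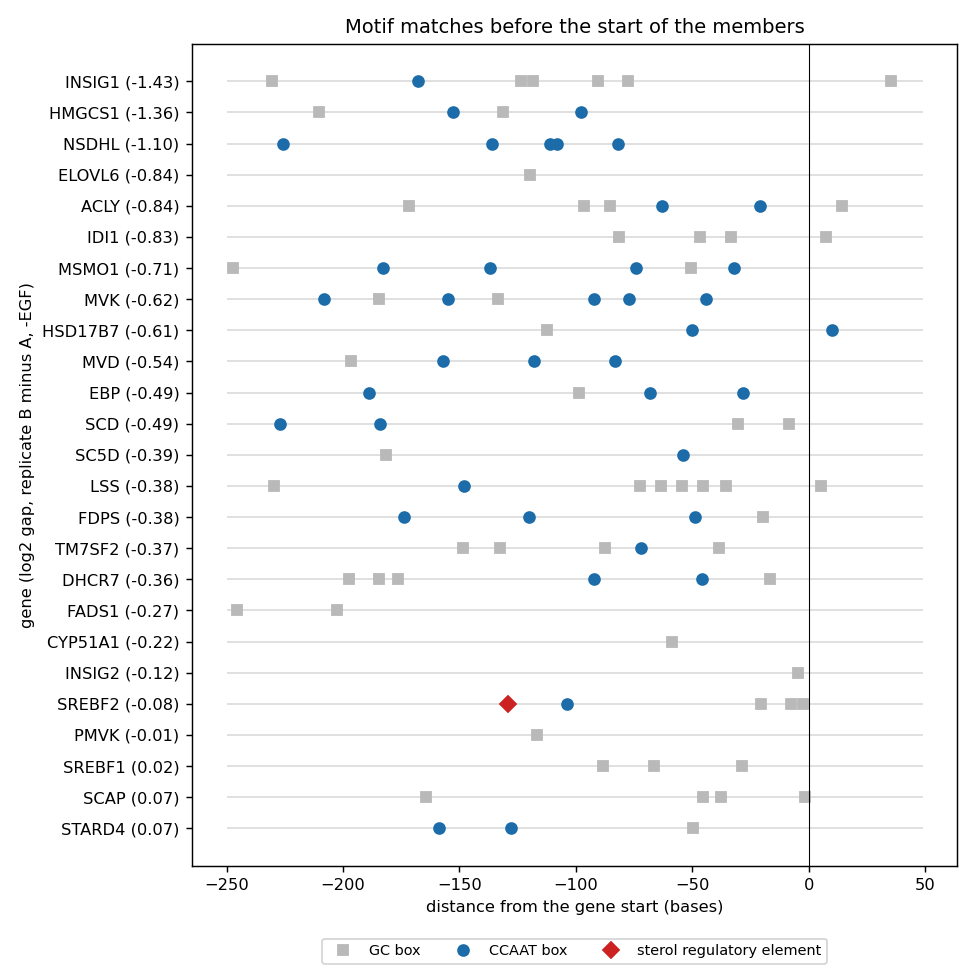
Each row is a member with at least 1 match in its first listed window, the horizontal axis is the distance from the gene start in bases, and the number beside each name is the log2 value of replicate B minus that of replicate A without EGF. Of the 25 members drawn, 17 have a CCAAT box there, and the red diamond is the sterol element of SREBF2.

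Over the 6 libraries the members moved largely as a block. With each gene centred on its own mean over the 6, the median of the 31 members was -0.44, 0.38 and 0.40 in controls P4, A and B, 0.14 in the BRCA2-labelled EGF library, -0.01 in replicate A without EGF and -0.43 in replicate B without EGF. The same median over all 14763 tested genes stayed between -0.02 and 0.03. Control P4 and replicate B without EGF were thus the low libraries, and the passage 6 controls the high ones. Control P4 was the lowest of the 6 libraries in 12 members and replicate B without EGF in 15, together 27 of 31, against 46.3% of tested genes. Control A or B was the highest in 23 of 31, against 18.6% of tested genes. These counts describe the genes in 6 libraries and are no test.

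**Figure D2:**
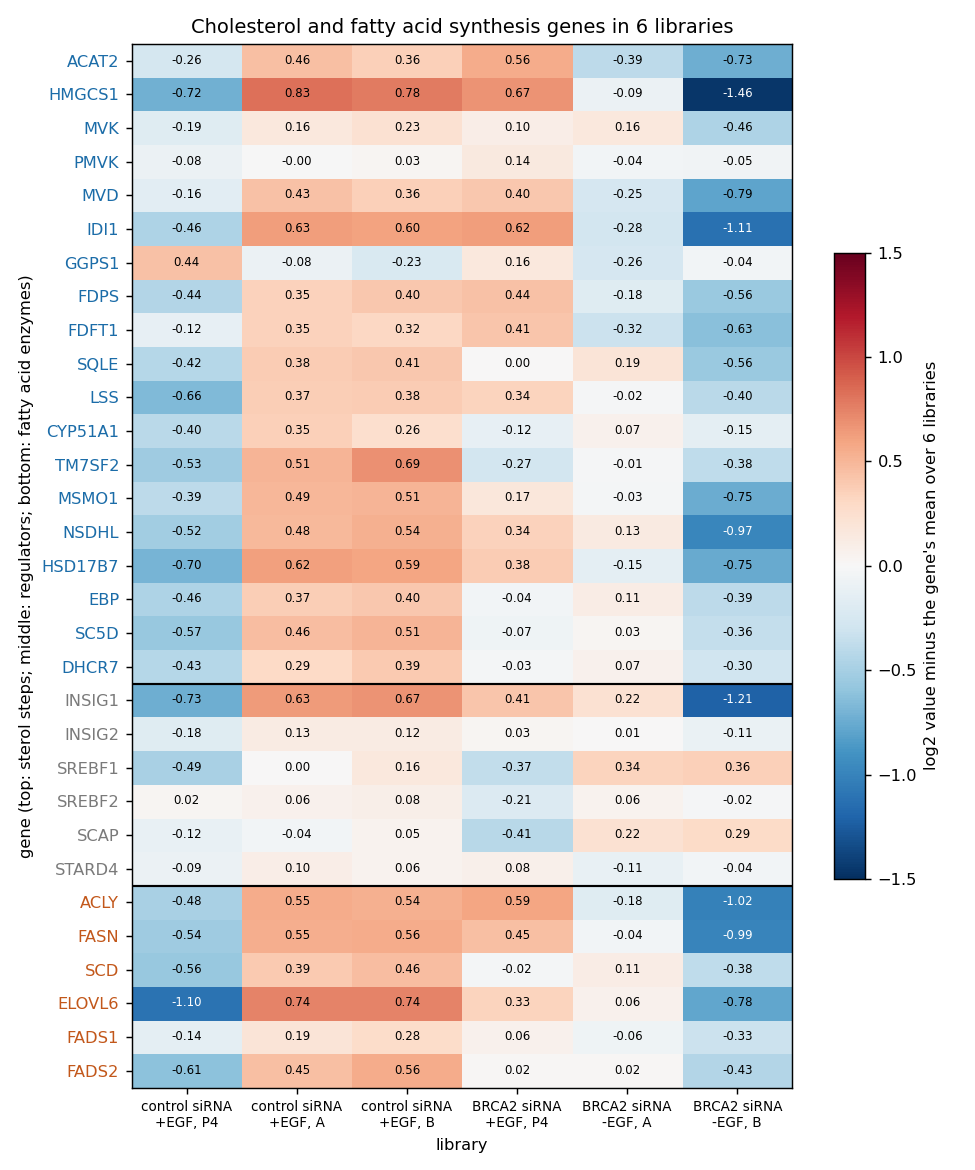
Rows are the 31 members in the order of the pathway, columns are the 6 libraries, and colour and number give the log2 value minus the gene's mean over the 6. The columns of control P4 and of replicate B without EGF are mostly below 0, and those of controls A and B mostly above, with SREBF1, SREBF2, SCAP and GGPS1 among the rows that do not follow.

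The first enzymes of the sterol pathway build mevalonate. HMGCS1, the synthase that joins acetyl-CoA to acetoacetyl-CoA, had log2 values of 13.31, 14.86 and 14.81 in controls P4, A and B, 14.70 in the BRCA2-labelled EGF library, and 13.94 and 12.58 in replicates A and B without EGF. Control P4 was therefore below replicate A without EGF, and the groups overlapped. ACAT2, the thiolase that makes acetoacetyl-CoA, had 11.76, 12.48 and 12.38 in the controls in the same order, 12.58 in the BRCA2-labelled EGF library, and 11.63 and 11.29 without EGF. Here both libraries without EGF lay below every other library, though replicate A was close to control P4.

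The next enzymes turn mevalonate into isoprenoid diphosphates. MVD, the decarboxylase that yields isopentenyl diphosphate, had 10.43, 11.02 and 10.94 in controls P4, A and B, 10.98 in the BRCA2-labelled EGF library, and 10.34 and 9.79 in A and B without EGF. IDI1, the isomerase that follows it, had 10.56, 11.65 and 11.63, then 11.65, then 10.74 and 9.91. For MVD the groups just failed to overlap, and for IDI1 replicate A without EGF lay above control P4. Of the kinases, MVK had a narrower range but the same low libraries, with 8.69 in replicate B without EGF, 8.96 in control P4 and up to 9.38 in control B. PMVK, the narrowest of the sterol enzymes, stood apart and ran only from 8.42 to 8.65 over the 6 libraries. FDPS, which makes farnesyl diphosphate, had 11.07, 11.86 and 11.91 in the controls, 11.95 in the BRCA2-labelled EGF library, and 11.34 and 10.96 without EGF. GGPS1, which uses farnesyl diphosphate to make the geranylgeranyl anchor of proteins and so leads away from sterols, had its highest value in control P4 (10.52) and 9.99 and 9.84 in controls A and B, the reverse of its neighbours. It was at 10.23 in the BRCA2-labelled EGF library, and at 9.82 and 10.04 without EGF.

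Squalene and lanosterol come next. FDFT1, the squalene synthase and first step given over to sterols, had 13.68, 14.16 and 14.12 in controls P4, A and B, 14.22 in the BRCA2-labelled EGF library, and 13.48 and 13.18 in A and B without EGF. As with ACAT2, both libraries without EGF were the lowest. SQLE, the squalene epoxidase, had 13.38, 14.18 and 14.21, then 13.81, then 13.99 and 13.24, so that only replicate B reached down to the level of control P4. LSS, the lanosterol synthase, had 11.05, 12.09 and 12.09, then 12.05, then 11.70 and 11.31, and control P4 was its lowest library.

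From lanosterol to cholesterol the enzymes remove methyl groups and move or reduce double bonds. NSDHL, which acts in removing the methyl groups, had 10.60, 11.60 and 11.65 in controls P4, A and B, 11.46 in the BRCA2-labelled EGF library, and 11.25 and 10.14 in A and B without EGF. Replicate A sat with the passage 6 controls more nearly than with its own partner. HSD17B7, the reductase of the same complex, had 9.07, 10.38 and 10.36, then 10.15, then 9.62 and 9.01. MSMO1, the methylsterol oxidase, had 13.19, 14.07 and 14.09, then 13.75, then 13.55 and 12.84. In each of these 3 the lowest library was replicate B without EGF, with control P4 next. The remaining steps had control P4 as the lowest library: TM7SF2, a sterol reductase (6.80 in control P4 to 8.02 in control B), EBP, the sterol isomerase (11.75 to 12.61), SC5D, a desaturase (11.63 to 12.71), and DHCR7, which makes cholesterol in the final step (12.10 to 12.92). CYP51A1, the lanosterol demethylase, was low at 6.06 in control P4 and 6.82 in control A, with 6.53 and 6.31 without EGF. Copies elsewhere in the genome, such as pseudogenes of CYP51A1, FDPS and HSD17B7, could have taken or lent reads in the authors' counting, so these 3 are uncertain to that extent.

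**Figure D3:**
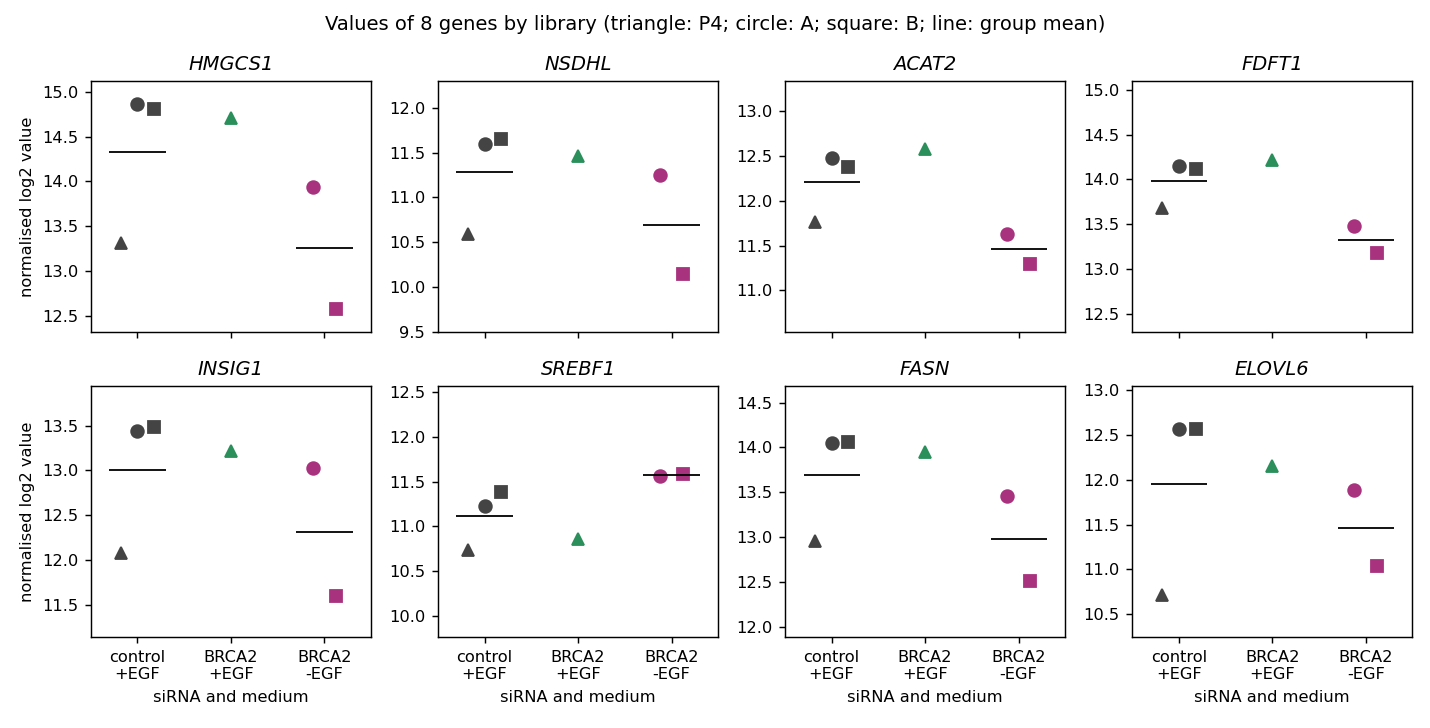
Each panel is a gene, the vertical axis is the normalised log2 value over the same span of 2.8, and points are libraries by siRNA and medium (triangle P4, circle A, square B) with a line at the mean of each group of more than 1 library. In ACAT2 and FDFT1 both libraries without EGF lie below the others, in HMGCS1, NSDHL, INSIG1, FASN and ELOVL6 control P4 lies within or below their spread, and SREBF1 is highest without EGF.

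Of the regulators, INSIG1 followed the enzymes and the others hardly did. INSIG1 had 12.08, 13.44 and 13.48 in controls P4, A and B, 13.22 in the BRCA2-labelled EGF library, and 13.03 and 11.60 in A and B without EGF. Its 2 replicates without EGF thus spanned most of the range of the 6 libraries. INSIG2, which also retains SCAP, ran only from 9.80 to 10.11, and STARD4, a cytosolic sterol carrier, from 12.22 to 12.42. SREBF2, the factor of the sterol enzymes, ran from 12.37 in the BRCA2-labelled EGF library to 12.66 in control B, and was 12.64 and 12.56 without EGF. The transcript of SREBF2 therefore stayed within 0.29 over libraries between which the sterol enzymes differed by up to 2.29 (HMGCS1). SREBF1, the factor of the fatty acid enzymes, had 10.74, 11.23 and 11.39 in the controls, 10.86 in the BRCA2-labelled EGF library, and 11.57 and 11.59 without EGF. SCAP, the escort protein, had 10.15, 10.22 and 10.31, then 9.85, then 10.48 and 10.55. Both were thus highest in the 2 libraries without EGF, where most enzymes were below the passage 6 controls.

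The fatty acid enzymes resembled the sterol enzymes. ACLY, which cleaves citrate to supply cytosolic acetyl-CoA to both pathways, had 13.36, 14.40 and 14.38 in controls P4, A and B, 14.44 in the BRCA2-labelled EGF library, and 13.67 and 12.83 in A and B without EGF. FASN, the synthase of palmitate, had 12.96, 14.05 and 14.06, then 13.95, then 13.46 and 12.51. In both genes control P4 lay between the replicates without EGF. ELOVL6, which lengthens palmitate, had the widest spread of this class, with 10.72, 12.56 and 12.57 in the controls, 12.15 in the BRCA2-labelled EGF library, and 11.89 and 11.04 without EGF. The desaturases differed less. SCD, which makes monounsaturated acids, had 15.99, 16.95 and 17.01 in the controls, 16.53 in the BRCA2-labelled EGF library, and 16.67 and 16.18 without EGF. FADS2, which starts the path to polyunsaturated acids, ran from 11.31 in control P4 to 12.49 in control B, with 11.95 and 11.49 without EGF. FADS1, which acts after it, ran from 12.40 in replicate B without EGF to 13.00 in control B.

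The replicated groups were compared first, 2 libraries labelled BRCA2 siRNA and lacking EGF against the 3 controls, with limma over all 14763 genes and Benjamini-Hochberg adjustment. The estimate was below 0 in 29 of 31 members, and their median on the log2 scale was -0.30 against -0.03 for all tested genes, but no member passed. By limma 0 of 31 had an adjusted p below 0.05 and 4 had an unadjusted p under 0.05, while 146 genes, or 0.989% of those tested, passed and 17.2% had an unadjusted p under 0.05. FDFT1 came nearest, with 13.33 ± 0.22 without EGF against 13.99 ± 0.26 in the controls (SD), a log2 difference of -0.66 ± 0.20 (standard error, adjusted p = 0.212, limma). ACAT2 differed by -0.74 ± 0.25 (adjusted p = 0.238) and MVD by -0.73 ± 0.25 (adjusted p = 0.241). HMGCS1 had the lowest estimate, -1.07 ± 0.61 (adjusted p = 0.414), and IDI1 followed at -0.95 ± 0.42 (adjusted p = 0.315). INSIG1 was at -0.68 ± 0.59 (adjusted p = 0.581) and ACLY at -0.80 ± 0.41 (adjusted p = 0.37). The estimates above 0 were those of SREBF1, 0.46 ± 0.21 (adjusted p = 0.332), and SCAP, 0.29 ± 0.12 (adjusted p = 0.283).

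Both libraries without EGF lay below all 3 controls in 3 of 31 members (ACAT2, MVD and FDFT1), against 23.9% of tested genes, and above all 3 in 2 of 31 (SREBF1 and SCAP), against 18.1%. The median was -0.11 when replicate B lacking EGF was left out, -0.57 without replicate A, and -0.65 without control P4. Without control P4, 2 of 31 members passed, as did 951 of the 14763 tested genes.

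Within passage 6, where 2 controls stood against the 2 libraries without EGF, the members were more clearly apart. ACAT2 fell, being 1.95-fold lower, with a log2 difference of -0.97 ± 0.135 (standard error, adjusted p = 0.0305, limma, passage 6 libraries only). FDFT1 fell by 0.81 ± 0.12 on the log2 scale, 1.75-fold lower (adjusted p = 0.0354, limma). These were the 2 of 31 members called, against 2.89% of tested genes called lower, and 22 of 31 had an unadjusted p under 0.05, against 31.5% of tested genes. Both libraries without EGF were below both controls in 28 of 31 members, against 35.7% of tested genes, and the median was -0.65 against -0.02 for all tested genes. FDPS (-0.74, adjusted p = 0.0544), HSD17B7 (-1.06, adjusted p = 0.0569), TM7SF2 (-0.79, adjusted p = 0.0578) and IDI1 (-1.31, adjusted p = 0.0633) did not pass in limma. HMGCS1, 2.99-fold lower by the estimate, had a difference of -1.58 ± 0.45 and an adjusted p of 0.0962. The SREBF1 value was 0.27 (adjusted p = 0.118) and that of SCAP 0.25 (adjusted p = 0.11), while GGPS1, at 0.01, was the other member not below 0. Controls A and B lay nearer to each other than the replicates without EGF did, and the spread in this comparison is pooled over both pairs.

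**Figure D4:**
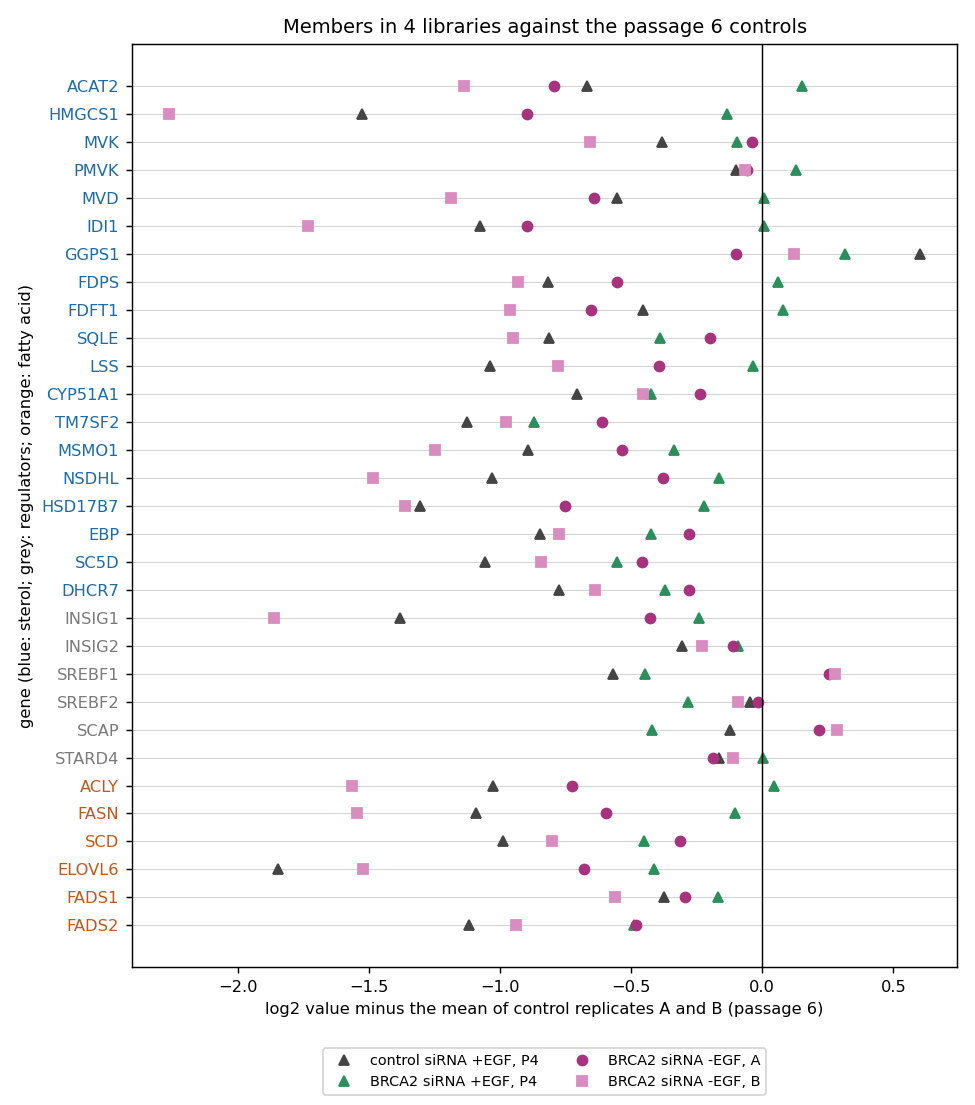
Rows are members, and the horizontal axis is the log2 value of a library minus the mean of controls A and B, which is the line at 0. Replicate B without EGF (squares) lies left of replicate A (circles) in 27 of 31 rows, and control P4 (black triangles) is to the left of 0 in all rows but GGPS1.

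The 2 libraries without EGF differed from each other more in these genes than in most. Replicate B was below replicate A in 27 of 31 members, against 50.7% of tested genes. It was lower by over 0.5 on the log2 scale in 12 of 31, against 4.13% of tested genes, and higher by over 0.5 in 0 of 31. It was lower by over 1 in 3 of 31, against 0.21% of tested genes (31 genes). These 3 were INSIG1, with a difference of -1.43 or 2.70-fold more in A, HMGCS1 (-1.36, 2.57-fold more in A) and NSDHL (-1.10, 2.15-fold more in A). Below -0.5 there followed FASN (-0.95), ELOVL6 (-0.84), ACLY (-0.84), IDI1 (-0.83), SQLE (-0.75), MSMO1 (-0.71), MVK (-0.62), HSD17B7 (-0.61) and MVD (-0.54). Just short of that limit were EBP and SCD, both at -0.49. In all, 14 of 31 members were among the 5% of tested genes with the lowest values of B minus A.

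The classes differed in this gap by description. All 6 fatty acid enzymes were lower in B, with a median of -0.66, as were 18 of 19 sterol enzymes, with a median of -0.39. The regulators had a median of -0.03, and 3 of 6 were lower in B, with INSIG1 as the only one past 0.5. GGPS1 (0.22) was the sterol enzyme higher in B, and SREBF1 (0.02), SCAP (0.07) and STARD4 (0.07) were the regulators higher in B. The median over members was -0.39, against -0.0033 for all tested genes, whose values of B minus A had an SD of 0.308. Between controls A and B at passage 6 the members differed by -0.14 to 0.18, with a median of 0.02, and all tested genes had an SD of 0.119. The gap within 1 group of 2 libraries has no replicate, so it has no test.

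**Figure D5:**
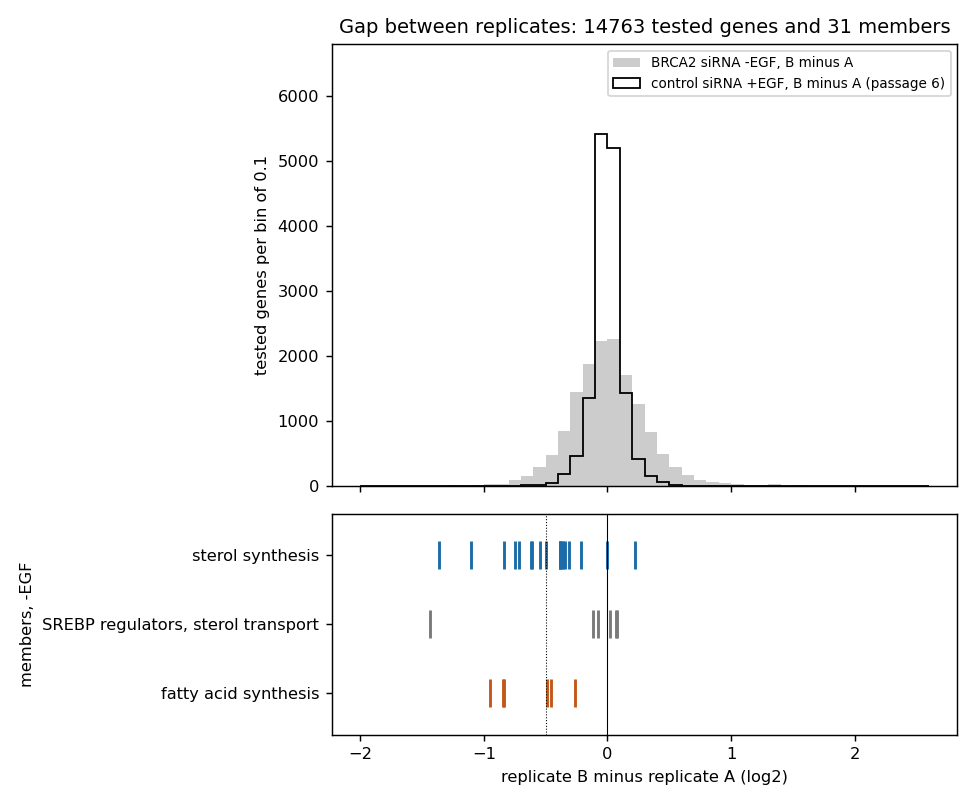
The upper panel counts tested genes by replicate B minus replicate A in bins of 0.1 on the log2 scale, filled for the libraries without EGF and in outline for the passage 6 controls. The lower panel has a tick for each member in the libraries without EGF, with a dotted line at -0.5, and 12 of the 31 ticks lie to the left of it.

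In the promoter windows, members with a CCAAT box at any listed start (20 tested) had a median B minus A of -0.49, from -1.43 to 0.22. Those without one (7 tested) had a median of -0.12, from -0.84 to 0.07. This is a description of 27 genes that share 2 libraries, and 3 of the 7 without the box are regulators (INSIG2, SREBF1 and SCAP). SREBF2 (-0.08), STARD4 (0.07) and GGPS1 (0.22) have the box and differed little or were higher in B. PMVK and CYP51A1, printed above without the box, differed by -0.01 and -0.22, and ELOVL6 by -0.84 with a GC box but no CCAAT box in its window, which says only that the letters CCAAT are not in it.

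The control libraries themselves differed between passages in the same genes. Controls A and B were both above control P4 in 30 of 31 members, against 43.9% of tested genes, and both above it by over 0.5 in 21 of 31, against 10.6%. The median of the passage 6 mean minus control P4 was 0.82, against -0.03 over all tested genes. ELOVL6 was 3.60-fold higher at passage 6, HMGCS1 2.88-fold, INSIG1 2.61-fold and HSD17B7 2.47-fold. SREBF2 (0.05) and PMVK (0.10) were the members with the smallest differences above 0, and GGPS1 was lower at passage 6 by the estimate (-0.60). Only 1 control library was from passage 4, so passage and that library cannot be told apart and no test is given.

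The members that were low in replicate B against A without EGF were also those low in control P4 against controls A and B. Over the 31 members the 2 differences had a Pearson correlation of 0.79, and over all tested genes 0.495. The points share these libraries and the authors' normalisation, so this is a description only.

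The BRCA2-labelled EGF library can be set beside control P4, which is from the same passage and medium. It was above control P4 in 28 of 31 members and by over 0.5 in 16 of 31, against 8.05% of tested genes, with a median of 0.54 against -0.04. ELOVL6 was higher by 1.43, HMGCS1 by 1.39, INSIG1 by 1.14 and IDI1 by 1.08. The members below control P4 were GGPS1 (-0.28), SREBF2 (-0.23) and SCAP (-0.30). This pair has 1 library on each side and no test of its own. BRCA2, the targeted gene, was not lower in this library than in control P4. It was at 10.19, 11.25 and 11.24 in controls P4, A and B, and at 10.88 in the BRCA2-labelled EGF library. Without EGF it was at 11.15 and 10.89 in replicates A and B. The library labelled BRCA2 siRNA was thus 0.69 above its passage 4 control, and every direction drawn from these 2 libraries holds by label only. The 3 controls, which share 1 siRNA, differed among themselves in BRCA2 by more than this pair did. Whether the labels are right was not tested. Nor was BRCA2 lower in the libraries without EGF against all 3 controls, with a difference of 0.12 (adjusted p = 0.881, limma). That estimate includes control P4, the lowest library at 10.19. Both libraries without EGF (11.15 and 10.89) lay below controls A and B (11.25 and 11.24), which share their passage. No test of BRCA2 within that passage is given here.

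Against all 3 controls together, with limma over the 6 libraries, the BRCA2-labelled EGF library gave 0 of 31 members called and 1 at an unadjusted p under 0.05, where 0.0% of tested genes passed (0 genes, with 412 or 2.79% at an unadjusted p under 0.05). The median of the members was 0.06, and 0.54 once a passage term was fitted. With that term the difference is the BRCA2-labelled EGF library minus control P4, 1 library a side, as given above.

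Without EGF against the BRCA2-labelled EGF library, 0 of 31 members passed in limma and 5 had an unadjusted p under 0.05, where 0.203% of tested genes passed and 16.4% had an unadjusted p under 0.05. The median was -0.26, and the lowest adjusted p was that of SCAP (0.67 higher without EGF, adjusted p = 0.178, limma). With a passage term, which takes the passage difference of the controls off, 4 of 31 were called lower, against 1.65% of tested genes. These were ACAT2 (-1.79, adjusted p = 0.041, limma), FDPS (-1.62, adjusted p = 0.0473), FDFT1 (-1.35, adjusted p = 0.0481) and LSS (-1.59, adjusted p = 0.0481), and the median was -1.15. In that fit the difference is the one within passage 6 (-0.97, -0.74, -0.81 and -0.59 for ACAT2, FDPS, FDFT1 and LSS) less the BRCA2-labelled EGF library minus control P4 (0.82, 0.88, 0.54 and 1.002). The second part comes from 1 library a side and would change sign if their labels were exchanged, so these 4 calls depend on the labels of these 2 libraries. All these comparisons share control or BRCA2 siRNA libraries with each other.

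Other parts of lipid metabolism were read from lists. A list of 10 genes held proteins that process SREBP or degrade its partners, and TMEM97. Of the 10, 0 passed in limma in the comparison of the replicated groups and 1 had an unadjusted p under 0.05 (SPRING1, a cofactor of the protease that cuts SREBP, at -0.39, adjusted p = 0.261). TMEM97, a sterol-regulated membrane protein, had the pattern of the enzymes, with 10.21, 11.24 and 11.36 in controls P4, A and B, 10.80 in the BRCA2-labelled EGF library, and 10.63 and 9.71 without EGF. UFD1, of the degradation machinery, was 0.44 lower in B than in A by the values. The nuclear receptors LXR switch on genes that export cholesterol, and of their 8 genes 0 passed over all libraries. ABCG1, an exporter, ran opposite to the enzymes between the replicates, at 7.35 in A and 8.11 in B, with 8.55 in control P4 and 7.73 and 7.61 in controls A and B. MYLIP, of the same list, was lower in B as the enzymes were, at 7.39 in A and 7.10 in B. By median the list differed between B and A by 0.09. ABCA1, which loads cholesterol onto apolipoproteins, rose within passage 6, by 0.68 ± 0.12 (adjusted p = 0.0465, limma), where 3.61% of tested genes were called higher. It had 7.63, 6.77 and 6.57 in controls P4, A and B and 7.29 and 7.40 without EGF, so that control P4 lay above both.

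Among 25 further enzymes of fatty acid and lipid metabolism 1 passed over all libraries, against 0.989% of tested genes. SCD5, a second stearoyl-CoA desaturase, had 9.82, 10.15 and 10.16 in controls P4, A and B, 9.91 in the BRCA2-labelled EGF library, and 11.49 and 11.29 in A and B without EGF. It rose 2.55-fold, a log2 difference of 1.35 ± 0.16 (standard error, adjusted p = 0.0307, limma), and the groups did not overlap. The adjusted p of SCD5 was 0.276 when replicate A lacking EGF was left out, 0.346 without replicate B, 0.0881 without control A, 0.0705 without control B, 0.0755 with controls A and B averaged, 0.141 with a replicate block and 0.0578 with no filter. SCD itself, the related member, differed by -0.23 (adjusted p = 0.775). Within passage 6, 5 of the 25 fell: ACSS2, which makes acetyl-CoA from acetate (-1.16, adjusted p = 0.00769, limma), PPARG, the adipogenic nuclear receptor (-0.93), ME1, a source of NADPH (-0.74), LPIN1, a phosphatidate phosphatase (-0.72), and ACSL4, an acyl-CoA synthetase (-0.52). FADS3 and SCD5 rose there, by 1.01 and 1.24. Of all tested genes, 2.89% were called lower and 3.61% higher within passage 6. ACSS2 had 11.21, 11.71 and 11.67 in the controls, 11.69 in the BRCA2-labelled EGF library, and 10.58 and 10.49 without EGF, with A and B close together, unlike most members.

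Identity of the cells and other cell types were read from markers. All 8 markers of basal mammary epithelium passed the filter, with a summed level (log2 of the sum of 2 raised to the value) of 18.46 to 18.53 in the controls, 18.30 in the BRCA2-labelled EGF library and 19.03 to 19.20 without EGF. Of 8 luminal markers 5 passed the filter, and KRT19 (0.91 to 1.12), EPCAM (-0.18 to 0.09) and ELF3 (0.22 to 0.39) were low in every library. KRT8 (10.66 to 11.24) and KRT18 (10.27 to 11.20) were well above them. The summed level of the luminal list was 12.01 to 12.19 in the controls, 11.89 in the BRCA2-labelled EGF library and 11.60 to 11.71 without EGF. That sum is mostly KRT8 and KRT18, and the list did not move together. Within passage 6, 2 of the 5 tested were below 0, with KRT18 at -0.85, KRT8 at 0.01 and MUC1 at 0.91. MUC1 had 6.06, 5.92 and 5.61 in controls P4, A and B, 6.92 in the BRCA2-labelled EGF library, and 6.64 and 6.70 without EGF. Of 10 fibroblast markers 8 passed the filter and 4 of them rose in limma (COL1A1, COL3A1, FAP and MFAP5), where 0.989% of tested genes were called in either direction. Their list had a summed level of 11.14 to 11.36 in the controls, 12.09 in the BRCA2-labelled EGF library and 12.76 to 12.80 without EGF, while COL1A2 and PDGFRA stayed below 4. Of 8 adipocyte markers, the cell type best known for these enzymes, 2 passed the filter and FABP4 rose (2.56, adjusted p = 0.00511, limma). The summed level of that list was 7.49 to 7.71 in the controls, 8.33 in the BRCA2-labelled EGF library and 9.94 to 9.98 without EGF, ADIPOQ was listed at 0 in all 6 libraries and PLIN1 ran from 1.76 to 2.17. Of 6 endothelial markers 1 (KDR) passed the filter, and of 7 haematopoietic markers 0 did. PECAM1, of the endothelial list, was not matched to a row and has no value here. Between replicates A and B without EGF single markers differed in both directions: B minus A was 0.60 for TP63 and 0.55 for LAMB3 of the basal list, and 0.53 for LUM, -0.64 for THY1 and -0.52 for MFAP5 of the fibroblast list. The SD of B minus A was 0.345 over the 8 basal and 0.400 over the 8 fibroblast markers tested, against 0.406 over the members, and their medians were 0.09 and -0.01 against -0.39. In bulk RNA fewer cells of a type and less RNA per cell cannot be told apart, and the part of these lists in the differences between groups or replicates was not tested.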

How the data were processed

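Polyadenylated RNA of 6 libraries was sequenced with a ScriptSeq v2 kit, per the labels' protocols. The submitters' processing notes name build hg19, TopHat2 2.0.11 and DESeq2. The authors deposited 1 table of normalised log2 values. What counted the reads, on which annotation and with which transformation is not given in the sources used here. Depth is unknown, and differences of low genes may be understated. Replicates, groups and passages came from the labels. Rows whose values, as powers of 2, averaged at least 10 (14763) were tested with limma 3.58.1 in R 4.3.3 (1 fit over 6 libraries, trend and robust priors, 3 residual degrees of freedom, two-sided, Benjamini-Hochberg). For the group of 1 library the spread is that of the others. The procedure was tested on simulated data. Symbols were matched by Ensembl identifier for 96.4% of tested rows. Members and lists were chosen with earlier results of these data known. Named beyond the members are list genes that passed limma and otherwise the 2 with the widest gap between replicates A and B without EGF, and BRCA2. SPRING1, ACSS2 and single markers were named after their values were seen. The replicate letters were not used to pair the libraries in the main fit. The A minus B differences of both groups correlated at -0.17 over 14763 genes. With 1 pair in each group this cannot show whether libraries of the same letter were handled together. Alternatives were other filters, priors, scalings, a passage term, a block, and each library left out.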

Additional observations from a re-analysis of the deposited data

How the results depend on the processing

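With no filter 87 genes passed in the comparison without EGF against control, with a mean of at least 50 it was 94, with controls A and B averaged 37, with a passage term 950 and with passage 6 alone 959 (main value 146). Leaving out 1 library gave 0 to 951, the lowest without either replicate lacking EGF and the highest without control P4. Members called were 2 with a passage term, with passage 6 alone and without control P4, and 0 otherwise. In this comparison those settings give the same difference, the libraries without EGF against controls A and B. They are therefore 1 result and not separate ones. With the replicate block 6 genes and 0 members passed. With the letters crossed, added after the data were seen, 112 genes and 0 members passed. Against the BRCA2-labelled EGF library (30 genes), 18 passed with no filter, 13 at a mean of at least 50, 56 with plain priors, 0 with the replicate block, 569 with a passage term, 11 with A and B averaged and 0 to 2404 with 1 library left out. Members called there were 4 with a passage term, with a median of -1.15, and 0 to 5 with 1 library left out, 5 being without control P4. The median of the BRCA2-labelled EGF library against control was 0.54 with a passage term, which is the difference from control P4 alone. The member median without EGF against control lay between -0.65 and -0.11 over all alternatives run. Of the gap, 23 members were past 0.25 and 3 past 1, limits added after the data were seen.

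Among single genes, differences near 0 changed sign in the comparison without EGF against control. Columns shifted to a common median gave 0.0205 for PMVK and 0.0107 for SREBF2, and quantile normalization gave 0.00889 for INSIG2 and 0.0356 for SREBF2. GGPS1 was at 0.0111 with a passage term or passage 6 alone, and CYP51A1 at 0.00741 with controls A and B averaged. With 1 library left out the ranges were -0.326 to 0.0111 for GGPS1 (highest without control P4), -0.346 to 0.0313 for CYP51A1 (highest without control A), and, highest without replicate B lacking EGF, -0.530 to 0.0866 for MVK, -0.679 to 0.0705 for SQLE, -1.40 to 0.0322 for INSIG1, -0.558 to 0.0175 for SCD, -0.528 to 0.00131 for EBP and -0.0778 to 0.000195 for SREBF2. In all, 15 such values reversed, 6 gained a call, 7 lost one (all SCD5) and 452 did neither. These counts run over genes and settings together. The passage term, passage 6 alone and leaving out control P4 each enter them, though they give the same difference. Fewer libraries and degrees of freedom enter the left-out fits, and the cause of the other changes was not tested. Depth is unknown, so no limit from it can be given.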

Other observations

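Genes that carry cholesterol between membranes or use isoprenoids were read from 2 more lists. In the comparison without EGF against control, 0 of 8 transport, storage and oxidation genes and 0 of 14 isoprenoid-using genes passed in limma, with 0 and 1 at an unadjusted p under 0.05. NPC2, a lysosomal sterol carrier, had 10.83, 10.76 and 10.79 in controls P4, A and B, 10.57 in the BRCA2-labelled EGF library, and 10.74 and 10.11 in replicates A and B without EGF. Its partner NPC1 went the other way between these replicates, with 12.42 in A and 12.84 in B, and was highest in control P4 (13.42). ICMT, which methylates prenylated proteins, had 11.31, 12.17 and 12.21 in the controls, 11.88 in the BRCA2-labelled EGF library, and 12.14 and 11.50 without EGF. PDSS1, which makes the side chain of coenzyme Q, had 7.11, 8.12 and 8.09, then 7.95, then 7.74 and 7.27. Both were thus low in control P4 and in replicate B without EGF, the low libraries of the sterol enzymes, though by median the isoprenoid list differed between B and A by only -0.06.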
